A study of Mus musculus with 30 samples.

Results

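The comparison described here set mice trained for 10 min against mice trained for 3 min in the object location memory (OLM) task, both after infusion of vehicle. It compared 12 of the 30 libraries of the series, 6 of VEH-T10 (10 min) and 6 of VEH-T3 (3 min). The 13184 of 24883 rows of the expression table with a mean of at least 1 FPKM over the 30 libraries were tested. FPKM are fragments normalised to transcript length and to the mapped fragments of the library. The limma fit took its variances from all 30 libraries, so the 3 groups outside the comparison also enter each SE and p. All mice were adult male C57BL/6J of wild-type genotype, and each library held the dorsal hippocampal RNA of 1 mouse, taken 1 h after training. Every mouse of both groups had received the transfection reagent in vivo-jetPEI without DNA, 3 days before training by the sample labels. 3 further groups of 6 are used as references: VEH-HC, vehicle mice left in the home cage, and the trained mice Y397F-T10 (10 min) and Y397D-T3 (3 min), which received a plasmid for CREST carrying the point mutation that names the group. By the study's methods the VEH-HC mice were handled only, while the task also includes days of habituation to the chamber. VEH-HC therefore differs from the trained groups by more than the training session. CREST, encoded by Ss18l1, is a transcriptional coactivator that links a neuronal chromatin remodelling complex to the acetyltransferase CBP.

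In the OLM task a mouse explores objects at fixed places and is later tested for noticing that one has moved. The hippocampus is needed for this memory, and a long-lasting memory requires new transcription in the hours after training. Synaptic activity reaches the nucleus through calcium and kinase signalling, which switches on immediate-early transcription factors such as Fos and the Egr family within minutes and, through them and CREB with its partner CBP, effector genes that act at synapses. The study calls the 10 min session threshold training and the 3 min session subthreshold training, since the second does not leave a long-term memory, and it asked whether they lead to different expression.

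FPKM tables hold no read totals. Relative depth could be read from rows of very low expression, where the value of a single fragment shows, and, set against the median library, was 0.897 to 1.24 in VEH-T10 and 0.842 to 1.16 in VEH-T3. The median SD among mice was 0.124 on the log2(FPKM + 1) scale in VEH-T10 and 0.151 in VEH-T3. Markers of CA1 pyramidal neurons were present in every mouse (6 markers, summed FPKM 192.5 to 235.8 in VEH-T10 and 174.3 to 268.7 in VEH-T3), and so were those of dentate granule cells, interneurons and glia. Choroid plexus RNA varied most. The summed FPKM of its 11 markers ran from 45.5 through a median of 165.0 to 5120.3 in VEH-T10 and from 65.8 through 2316.5 to 14462.5 in VEH-T3, with VEH-T3 mouse 4 the highest. In bulk tissue, fewer cells of a type and less RNA per cell cannot be told apart.

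Training period left few differences that passed the test. Of 13184 rows, limma with Benjamini-Hochberg adjustment called 6 lower in VEH-T10 than in VEH-T3 (0.0455%) and 0 higher (0.0%), at an adjusted p under 0.05. Of the 6, 5 are described here, all with long transcripts: Lrrc58, which encodes a leucine-rich repeat protein, Rlim, an X-linked E3 ubiquitin ligase, Rc3h1, the RNA-binding protein roquin-1 that promotes mRNA decay, Nucks1, a chromatin-associated nuclear protein, and Tbl1xr1, a component of nuclear corepressor complexes. The ratio of VEH-T10 to VEH-T3 on the FPKM + 1 scale ran from 0.806 for Rc3h1 to 0.872 for Nucks1. Without adjustment, 481 rows were higher (3.65%) and 594 lower (4.51%) at p under 0.05, and the smallest adjusted p of a row higher in VEH-T10 was 0.0806. The 6 mice of each group did not overlap in 10 rows that were higher (0.0758%) and 41 that were lower (0.311%).

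The calls depended on single mice and on the fit. Leaving out VEH-T10 mouse 3 gave 0 calls (900 rows at an unadjusted p under 0.05), leaving out VEH-T10 mouse 4, VEH-T3 mouse 1 or VEH-T3 mouse 2 gave 1, leaving out VEH-T3 mouse 3 gave 2, and leaving out VEH-T10 mouse 5, VEH-T10 mouse 6 or VEH-T3 mouse 6 gave 3. With VEH-T3 mouse 5 left out, 5 rows were higher and 16 lower. A fit of the 12 libraries alone gave 0 calls (842 rows at an unadjusted p under 0.05), and so did centring each library on its median (972 rows) and removing the trend with transcript length and GC content (749 rows). The smallest limma adjusted p of any row was 0.4771 in the 12 libraries alone, 0.07545 when centred and 0.1625 with the trend removed. Weighting libraries by their quality gave 9 higher and 44 lower.

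**Figure D1:**
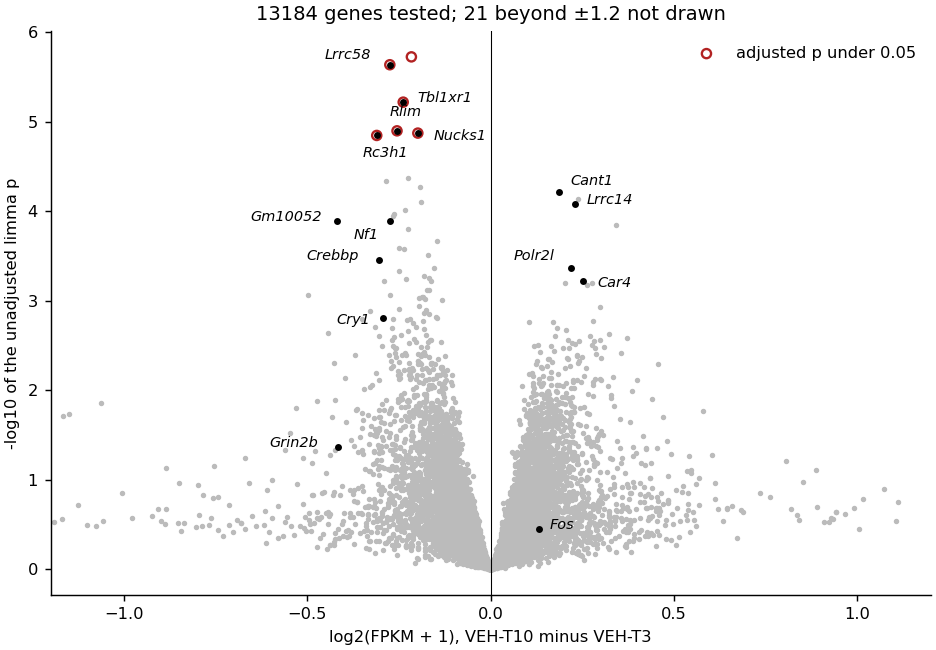
Each point is 1 of the 13184 rows, with the difference in log2(FPKM + 1), VEH-T10 minus VEH-T3, on the x axis and -log10 of the unadjusted limma p on the y axis. The 6 open red circles, all left of 0, are the rows with an adjusted p under 0.05. Below them, Cant1 leads the right side, and Fos lies near the base. The 21 rows beyond 1.2 in either direction are not drawn.

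The promoters of the called genes and of Fos are printed to show which motifs their starts hold. The RefSeq windows (GRCm38.p6, 250 bases before the start to 50 after it, 5′ to 3′ on the gene's strand) were searched on both strands for the CRE (TGACGTCA), AP-1 (TGANTCA), E-box (CACGTG), GC box (GGGCGG), EGR (GCGTGGGCG) and CArG box motifs, and capitals mark every match.
Lrrc58 (chr16:37868150-37868449, plus strand): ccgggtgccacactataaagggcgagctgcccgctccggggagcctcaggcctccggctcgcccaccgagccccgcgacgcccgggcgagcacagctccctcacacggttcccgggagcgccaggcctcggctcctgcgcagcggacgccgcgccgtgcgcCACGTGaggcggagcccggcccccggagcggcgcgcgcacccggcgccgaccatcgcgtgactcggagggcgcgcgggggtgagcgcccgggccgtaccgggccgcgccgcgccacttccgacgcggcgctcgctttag
Rlim (chrX:103981236-103981535, minus strand): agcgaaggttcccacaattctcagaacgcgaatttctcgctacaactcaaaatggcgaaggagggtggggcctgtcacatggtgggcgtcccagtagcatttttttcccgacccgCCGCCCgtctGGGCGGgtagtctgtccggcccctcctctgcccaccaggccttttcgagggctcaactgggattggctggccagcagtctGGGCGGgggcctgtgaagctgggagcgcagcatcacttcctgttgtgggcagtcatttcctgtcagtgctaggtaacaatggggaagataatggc
Rc3h1 (chr1:160906161-160906460, plus strand): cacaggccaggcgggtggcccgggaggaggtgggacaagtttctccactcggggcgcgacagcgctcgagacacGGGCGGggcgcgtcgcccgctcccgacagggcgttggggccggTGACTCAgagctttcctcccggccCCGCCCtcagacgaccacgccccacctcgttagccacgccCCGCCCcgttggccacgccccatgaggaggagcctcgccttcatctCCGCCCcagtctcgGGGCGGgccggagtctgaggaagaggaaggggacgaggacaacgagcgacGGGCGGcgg
Nucks1 (chr1:131910208-131910507, plus strand): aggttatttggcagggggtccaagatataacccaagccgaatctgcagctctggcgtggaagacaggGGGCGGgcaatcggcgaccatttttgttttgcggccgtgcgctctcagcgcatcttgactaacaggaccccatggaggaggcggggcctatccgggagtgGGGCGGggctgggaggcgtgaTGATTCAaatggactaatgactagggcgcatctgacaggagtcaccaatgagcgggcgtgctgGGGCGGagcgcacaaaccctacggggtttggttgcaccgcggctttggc
Tbl1xr1 (chr3:22076402-22076701, plus strand): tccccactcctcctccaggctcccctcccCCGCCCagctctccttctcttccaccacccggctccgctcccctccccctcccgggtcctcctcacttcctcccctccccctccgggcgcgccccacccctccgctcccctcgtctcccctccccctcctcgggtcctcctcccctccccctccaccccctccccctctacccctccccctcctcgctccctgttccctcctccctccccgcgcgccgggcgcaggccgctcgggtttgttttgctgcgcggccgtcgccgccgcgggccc
Fos (chr12:85473640-85473939, plus strand): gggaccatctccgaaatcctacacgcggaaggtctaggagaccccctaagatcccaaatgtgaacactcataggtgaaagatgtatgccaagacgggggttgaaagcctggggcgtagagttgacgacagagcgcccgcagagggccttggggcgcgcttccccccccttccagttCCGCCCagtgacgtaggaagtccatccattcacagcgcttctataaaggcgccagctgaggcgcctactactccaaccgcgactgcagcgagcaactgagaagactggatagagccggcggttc

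The called genes were GC-rich at their starts, from 59.0% in Rlim to 79.0% in Lrrc58, against a median of 52.7% over 32851 windows. GC boxes were the motif they shared most. Rc3h1 held 6, Rlim and Nucks1 3 each and Tbl1xr1 1, while 35.7% of all windows hold at least 1. Rc3h1 and Nucks1 each held an AP-1 match (7.81% of all windows), and Lrrc58 held an E-box 89 bases before its start (7.15% of all windows). None of the 5 held the full CRE (1.79%), the EGR motif (0.612%) or a CArG box (1.63%) in this window. The windows of Fos, Egr2 and Homer1 held no full CRE either: Fos held 1 GC box, Egr2 4 GC boxes and an E-box that overlaps one of them, and Homer1 no match.

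Lrrc58 (chromosome 16, 37868389–37888858) ranged from 8.75 through a median of 10.2 to 10.99 FPKM in VEH-T10 and from 11.4 through 12.4 to 13.0 FPKM in VEH-T3. All VEH-T10 mice lay below all VEH-T3 mice. The log2 difference was -0.27 (SE 0.0464, limma adjusted p = 0.0152). Against VEH-HC, at 10.5 ± 0.37 FPKM (SD, n = 6), VEH-T3 was higher by 0.22 log2 (adjusted p = 0.0123) and VEH-T10 differed by -0.06 (adjusted p = 0.606). For Lrrc58 it is therefore the 3 min mice that stood apart from the home cage.

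Rlim (chromosome X, 103957163–103981284) showed another arrangement. It ranged from 5.91 through 6.58 to 7.11 FPKM in VEH-T10 and from 7.23 through 8.10 to 8.91 FPKM in VEH-T3, without overlap. The log2 difference was -0.26 (SE 0.0482, limma adjusted p = 0.0313). VEH-HC averaged 7.80 ± 0.39 FPKM (SD, n = 6), from which VEH-T10 differed by -0.21 log2 (adjusted p = 0.0299) and VEH-T3 differed by 0.04 (adjusted p = 0.698). Here it is the 10 min mice that lay apart from the home cage.

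Rc3h1 (chromosome 1, 160906418–160974978) had the largest difference of the 5, with 3.50 through 3.69 to 3.87 FPKM in VEH-T10 and 4.49 through 4.79 to 5.22 FPKM in VEH-T3. The groups did not overlap, and the log2 difference was -0.31 (SE 0.0591, limma adjusted p = 0.0313). VEH-T3 exceeded VEH-HC by 0.21 log2 (adjusted p = 0.0358), while VEH-T10 differed from VEH-HC by -0.10 (adjusted p = 0.463). Its paralog Rc3h2, which encodes roquin-2, ranged from 5.56 to 6.78 FPKM in VEH-T10 and from 6.44 to 8.20 FPKM in VEH-T3. The log2 difference of Rc3h2 was -0.25 (limma adjusted p = 0.152, not called). Of 21 refits with other settings or 1 mouse left out, 2 called it, among them the one without VEH-T3 mouse 5 (-0.28 log2, adjusted p = 0.0475).

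Nucks1 (chromosome 1, 131910534–131936321) was the most highly expressed of the 5. It ranged from 24.3 through 25.2 to 27.3 FPKM in VEH-T10 and from 27.9 through 29.3 to 31.0 FPKM in VEH-T3, without overlap. The log2 difference was -0.20 (SE 0.0376, limma adjusted p = 0.0313). As with Rlim, it was VEH-T10 that differed from VEH-HC (-0.17 log2, adjusted p = 0.0263) and VEH-T3 that did not pass the test (0.02 log2, adjusted p = 0.774).

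Tbl1xr1 (chromosome 3, 22076652–22216594) was the only one of the 5 whose groups overlapped. It ranged from 8.26 through 8.87 to 10.2 FPKM in VEH-T10 and from 10.2 through 10.8 to 11.5 FPKM in VEH-T3, where VEH-T10 mouse 1 (10.22 FPKM) lay above VEH-T3 mouse 3 (10.18 FPKM). The log2 difference was -0.24 (SE 0.0428, limma adjusted p = 0.0266). VEH-T3 exceeded VEH-HC by 0.14 log2 (adjusted p = 0.0461), and VEH-T10 differed from it by -0.09 (adjusted p = 0.299).

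These comparisons share the VEH-HC libraries with each other and the trained libraries with the direct comparison, so the values are set side by side only. Set against VEH-HC, VEH-T3 had 2.23% of all rows higher and 2.94% lower, and VEH-T10 had 0.319% higher and 0.501% lower. The differences of Rlim and Nucks1 in VEH-T10 from VEH-HC lost the call when VEH-T10 mouse 3, 4, 5 or 6 was left out (-0.19 to -0.22 and -0.16 to -0.17 log2), and so did that of Rc3h1 in VEH-T3 without VEH-T3 mouse 2 or 3 (0.19 and 0.20 log2) and that of Tbl1xr1 without VEH-T3 mouse 2, 3, 4 or 6 (0.13 to 0.16 log2) or, at an unchanged 0.14 log2, without VEH-T10 mouse 2 or 4. With each library centred on its median, the calls of Rlim (adjusted p = 0.158), Nucks1 (adjusted p = 0.148) and Tbl1xr1 (adjusted p = 0.0953) were lost, and without the filter on low values those of Rc3h1 (adjusted p = 0.0524) and Tbl1xr1 (adjusted p = 0.0589). That of Lrrc58 in VEH-T3 passed in the 15 refits run, which were these, another pseudocount and each of the 12 mice left out. Removal of the length and GC trend was not among these 15.

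**Figure D2:**
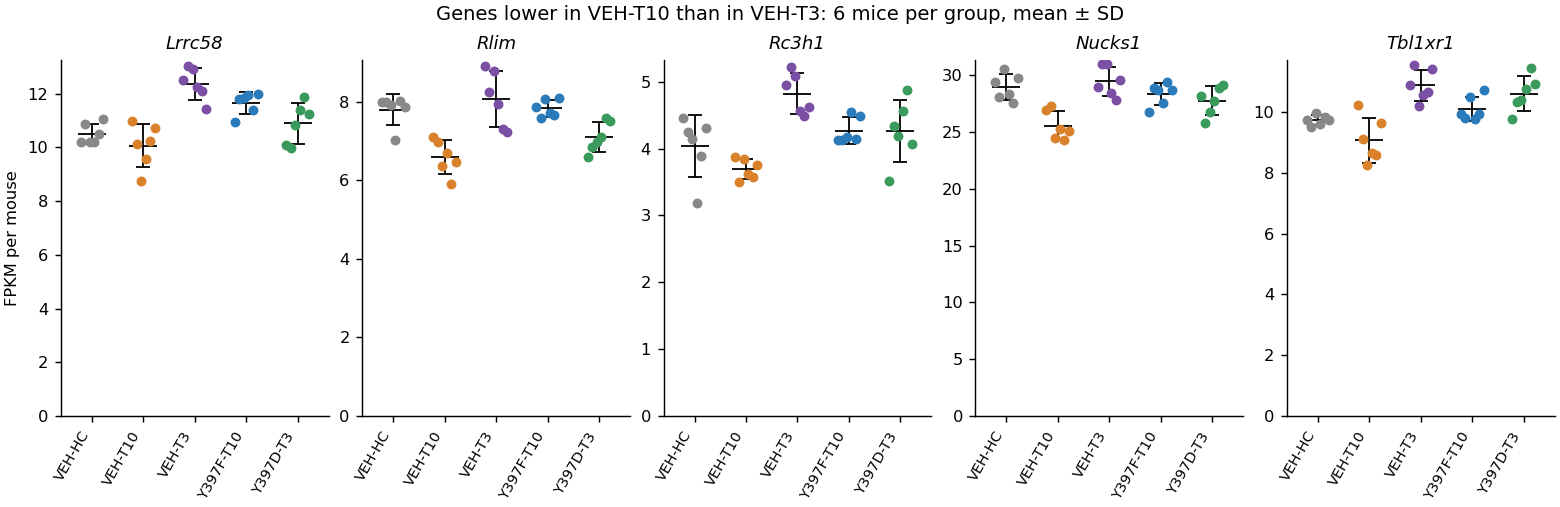
FPKM of each mouse (points; 6 per group) with the mean and SD (black) for the 5 called genes described, in VEH-HC, VEH-T10, VEH-T3, Y397F-T10 and Y397D-T3. The VEH-T10 mice lie below the VEH-T3 mice in each panel, with 1 mouse of overlap in Tbl1xr1, while the plasmid groups, in the last 2 places, overlap in each panel.

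The mice with plasmid had the same pair of training periods, but there the mutant changed with the period, so that period and mutant cannot be told apart. Between Y397F-T10 and Y397D-T3 none of the 5 genes passed the test, with log2 differences of 0.09 for Lrrc58, 0.12 for Rlim, 0.01 for Rc3h1, 0.03 for Nucks1 and -0.06 for Tbl1xr1 (limma adjusted p from 0.389 for Rlim to 0.981 for Rc3h1). 8 rows (0.0607%) were called in that comparison. The difference between the vehicle and the plasmid contrast was itself tested and called for 4 rows (0.0303%), all more negative in vehicle mice. It was -0.37 log2 for Lrrc58 (SE 0.0656) and -0.38 for Rlim (SE 0.0681), both with an adjusted p of 0.0228. For Rc3h1, Nucks1 and Tbl1xr1 it did not pass (adjusted p = 0.303, 0.289 and 0.415).

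Of the others among the 4, Tmem263, which encodes a transmembrane protein, was named after its values were seen. It ranged from 6.57 through 7.70 to 8.09 FPKM in VEH-T10, from 7.70 through 8.11 to 8.62 FPKM in VEH-T3, from 7.55 to 8.502 FPKM in Y397F-T10 and from 6.45 to 7.13 FPKM in Y397D-T3. The vehicle groups overlapped and the plasmid groups did not. Tmem263 differed by -0.09 log2 in vehicle mice (adjusted p = 0.607) and by 0.23 log2 in plasmid mice (adjusted p = 0.0334), a difference of -0.32 log2 (adjusted p = 0.0228). Leaving out VEH-T10 mouse 5, VEH-T3 mouse 2 or VEH-T3 mouse 3 gave 0 calls, as did the 24 trained libraries alone (1098 rows at an unadjusted p under 0.05), centring each library on its median (1163 rows) and the removal of the length and GC trend (652 rows). Over all rows the difference of VEH-T10 and VEH-T3 and that of Y397F-T10 and Y397D-T3 had the same sign in 50.1%.

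The genes that were higher in VEH-T10 by the largest amounts without overlap of the mice were Wnt7a, a secreted Wnt ligand, Car4, a membrane-bound carbonic anhydrase, Lrrc14, a leucine-rich repeat protein, Polr2l, a subunit shared by the RNA polymerases, and Cant1, a calcium-activated nucleotidase. None was called. Cant1 ranged from 18.1 through 19.4 to 20.6 FPKM in VEH-T10 and from 15.4 through 17.0 to 17.9 FPKM in VEH-T3 (log2 difference 0.19, SE 0.0396, adjusted p = 0.0806). Lrrc14 ranged from 9.63 through 10.1 to 10.7 FPKM and from 7.70 through 8.59 to 9.01 FPKM (0.23, SE 0.0502, adjusted p = 0.0839). Both lay closer to VEH-HC in VEH-T10, at 19.1 FPKM for Cant1 and 10.7 FPKM for Lrrc14 in the home cage, and both were lower in VEH-T3 than in VEH-HC (-0.17 log2, adjusted p = 0.0173, and -0.30 log2, adjusted p = 0.00393). Car4 ranged from 25.7 to 29.4 FPKM in VEH-T10 and from 21.9 to 25.3 FPKM in VEH-T3 (0.25, adjusted p = 0.233), Wnt7a from 4.79 to 5.69 FPKM and from 3.47 to 4.74 FPKM (0.28, adjusted p = 0.463), and Polr2l from 16.4 to 19.5 FPKM and from 13.6 to 16.3 FPKM (0.22, adjusted p = 0.209). Without VEH-T3 mouse 5, Cant1 (0.20 log2, limma adjusted p = 0.0309) and Lrrc14 (0.25 log2, adjusted p = 0.0475) were called. Of 21 refits, Cant1 was called in 1 and Lrrc14 in 2.

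Of the genes lower in VEH-T10, the largest differences without overlap were those of Rc3h1 and Lrrc58 and of Gm10052, Klhl15, Cry1 and Nf1, the last 4 not called. Gm10052 ranged from 54.7 through 65.9 to 68.9 FPKM in VEH-T10 and from 73.3 through 85.7 to 95.1 FPKM in VEH-T3 (-0.42 log2, adjusted p = 0.0944). Nf1, which encodes the Ras GTPase-activating protein neurofibromin, ranged from 5.81 through 6.77 to 6.79 FPKM and from 7.33 through 7.97 to 9.17 FPKM (-0.28, limma adjusted p = 0.0944). It was called in 2 of 21 refits, among them the one without VEH-T3 mouse 5 (-0.30 log2, adjusted p = 0.0481). Klhl15, an adaptor of a cullin ubiquitin ligase, ranged from 1.07 to 1.45 FPKM and from 1.45 to 2.49 FPKM (-0.32, adjusted p = 0.386). Cry1, a repressor of the circadian clock, ranged from 3.53 through 3.92 to 4.35 FPKM and from 4.46 through 4.99 to 6.08 FPKM (-0.29, adjusted p = 0.357).

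No immediate-early transcription factor passed the test between the periods. Of 17 measured, 0 were called by limma, 0 had an unadjusted p under 0.05, 8 were nominally higher in VEH-T10 and 9 lower, and the median difference was -0.01 log2, beside 0.00 over all rows. Fos ranged from 6.89 through 7.08 to 9.16 FPKM in VEH-T10 and from 5.32 through 6.83 to 7.87 FPKM in VEH-T3. The log2 difference was 0.13, with a 95% interval from -0.15 to 0.42 (adjusted p = 0.84). VEH-T10 mouse 5, at 9.16 FPKM, was the highest of these 12 mice. Both trained groups lay above VEH-HC in the mean, at 4.96 ± 1.23 FPKM (SD, n = 6), by 0.52 log2 in VEH-T10 (adjusted p = 0.0658) and 0.39 in VEH-T3 (adjusted p = 0.0962), neither called.

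Egr1, a zinc finger factor of the same class, ranged from 46.6 through 50.7 to 53.1 FPKM in VEH-T10 and from 44.8 through 58.5 to 64.2 FPKM in VEH-T3. The VEH-T10 mice sat inside the wider spread of the VEH-T3 mice (-0.14 log2, 95% interval -0.39 to 0.12, adjusted p = 0.81). VEH-T3 was above VEH-HC by 0.61 log2 (adjusted p = 0.0104) and VEH-T10 by 0.47 (adjusted p = 0.0651). Egr2 ranged from 1.05 to 1.86 FPKM in VEH-T10 and from 0.787 to 1.57 FPKM in VEH-T3 (0.14 log2, interval -0.17 to 0.45), and Egr4 averaged 21.9 and 20.4 FPKM (0.11 log2, interval -0.08 to 0.30). Fosb had the largest positive difference of the list (0.19 log2, adjusted p = 0.697) and Npas4 the most negative (-0.17 log2, adjusted p = 0.834).

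Activity-induced effectors gave 12 members nominally higher and 8 lower of 20, with a median of 0.02 log2 and 0 calls. Only Homer3, a postsynaptic scaffold protein, had an unadjusted p under 0.05. It ranged from 24.98 through 26.9 to 37.3 FPKM in VEH-T10 and from 19.2 through 22.01 to 30.3 FPKM in VEH-T3 (0.28 log2, adjusted p = 0.469). Homer1, whose short form is induced by activity, ranged from 18.5 through 22.4 to 25.7 FPKM and from 18.8 through 22.7 to 25.1 FPKM (-0.03 log2, interval -0.19 to 0.12, adjusted p = 0.932). In both groups it was above VEH-HC, at 16.1 FPKM, by 0.42 log2 in VEH-T10 (adjusted p = 0.0096) and 0.45 in VEH-T3 (adjusted p = 0.00393). The deposited values do not separate its isoforms.

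The ERK feedback genes (11 measured) gave 0 calls and 0 at an unadjusted p under 0.05. Dusp6, a phosphatase of ERK, ranged from 22.3 to 27.5 FPKM in VEH-T10 and from 17.0 to 27.6 FPKM in VEH-T3 (0.03 log2, interval -0.17 to 0.24). Of 17 circadian clock genes, 0 were called, 5 were nominally higher and 12 lower (51.0% higher over all rows). The 2 with an unadjusted p under 0.05, Cry1 and Clock, were both lower in VEH-T10 (4.51% over all rows). With the length and GC trend removed, Cry1 differed by -0.32 log2 and Clock by -0.01. Clock averaged 7.46 ± 0.395 FPKM in VEH-T10 and 8.19 ± 0.448 FPKM in VEH-T3 (SD, n = 6; -0.12 log2, adjusted p = 0.585). Per2, a clock gene that is also raised by activity, averaged 6.40 ± 0.323 and 6.36 ± 1.02 FPKM (0.02 log2, interval -0.13 to 0.17), against 4.70 FPKM in VEH-HC.

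**Figure D3:**
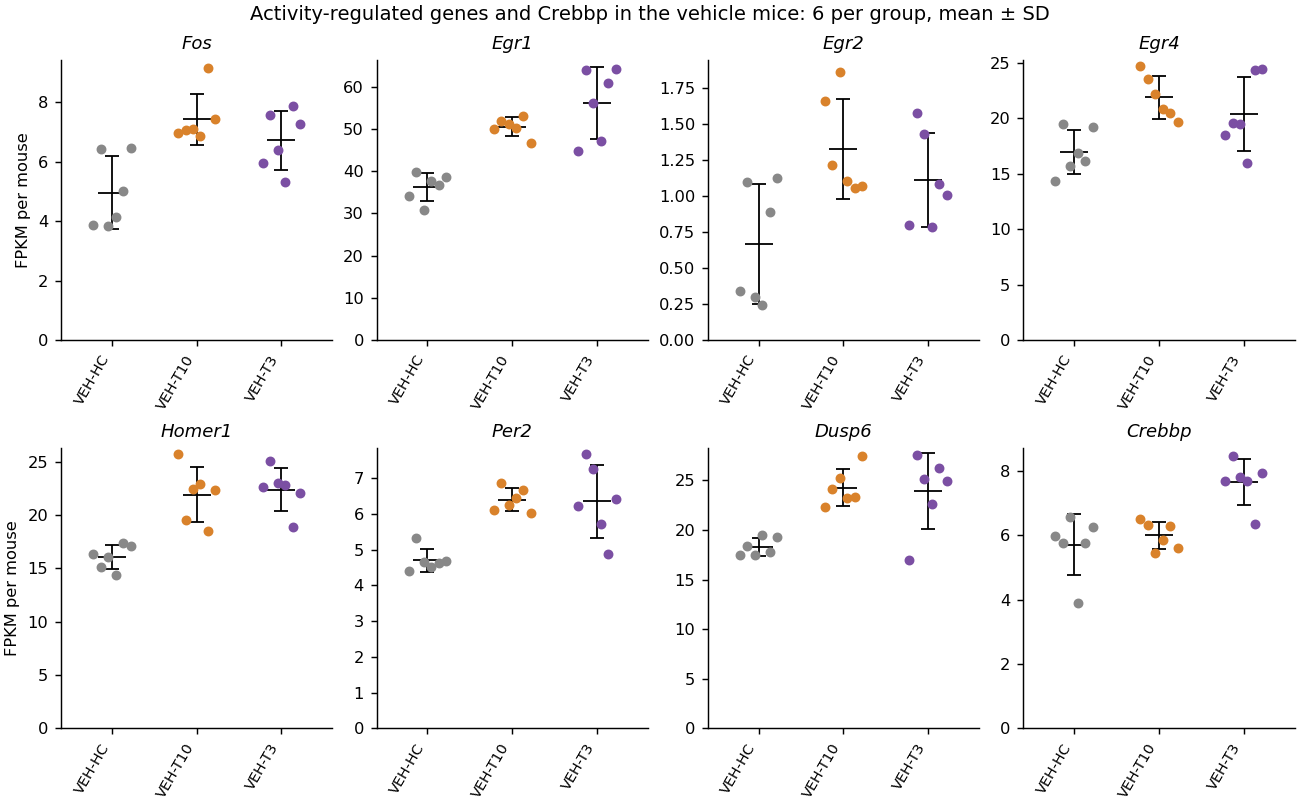
FPKM of each vehicle mouse (points; 6 per group, with mean and SD in black) in VEH-HC, VEH-T10 and VEH-T3 for 7 activity-regulated genes and Crebbp. VEH-T10 and VEH-T3 overlap in the 7 activity-regulated genes, and VEH-T3 spreads more widely than VEH-T10 in Egr1, Per2 and Dusp6. In Crebbp 5 of the 6 VEH-T3 mice lie above every VEH-T10 mouse.

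Crebbp, which encodes CBP, had the lowest p of the list of CBP, CREB and their coactivators. It ranged from 5.47 through 6.06 to 6.51 FPKM in VEH-T10 and from 6.36 through 7.76 to 8.49 FPKM in VEH-T3. The ranges met only at VEH-T3 mouse 5. The log2 difference was -0.31 (SE 0.075, 95% interval -0.46 to -0.15, limma adjusted p = 0.186), so that Crebbp was not called. It was called in 2 of 21 refits, among them the one without VEH-T3 mouse 5 (-0.35 log2, adjusted p = 0.0475). That mouse was the lowest of VEH-T3, so leaving it out widens the difference. The transcript has 10820 bases, and with the length and GC trend removed the difference was -0.22 log2. Against VEH-HC, at 5.71 FPKM, VEH-T3 was higher by 0.38 log2 (adjusted p = 0.0091) and VEH-T10 differed by 0.07 (adjusted p = 0.702). Ep300, which encodes the related acetyltransferase p300, averaged 7.71 and 8.66 FPKM (-0.15 log2, adjusted p = 0.584), and Creb1, the gene of CREB, 5.74 and 6.34 FPKM (-0.12 log2, adjusted p = 0.592). These 3 of 14 members had an unadjusted p under 0.05, all lower in VEH-T10 (4.51% over all rows), while the list was split at 7 and 7 with a median of 0.00 log2. With the length and GC trend removed, Ep300 differed by -0.07 log2 and Creb1 by -0.03. In that fit 4 members of the list were higher and 10 lower, with a median of -0.04 log2.

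Of 21 subunits of the neuronal remodelling complex (nBAF), 0 were called. Smarcd3 averaged 35.4 ± 2.70 FPKM in VEH-T10 and 31.1 ± 1.80 FPKM in VEH-T3 (SD, n = 6; 0.18 log2, adjusted p = 0.61), and Arid1a 15.8 ± 0.634 and 17.3 ± 0.867 FPKM (-0.12 log2, adjusted p = 0.609), the only members with an unadjusted p under 0.05. Ss18l1 ranged from 10.4 through 12.4 to 13.3 FPKM in VEH-T10 and from 11.8 through 12.9 to 14.7 FPKM in VEH-T3 (-0.10 log2, interval -0.22 to 0.02, adjusted p = 0.69). The 27 histone genes gave 0 calls and 0 at an unadjusted p under 0.05. Hist1h4j, one of the histone H4 genes the study examined, ranged from 0.762 to 9.86 FPKM and from 0.0 to 3.01 FPKM (0.89 log2, SE 0.485, adjusted p = 0.65), and near-identical histone copies can share reads.

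Of 27 calcium signalling genes, 0 were called and 18 were nominally higher in VEH-T10 (51.0% over all rows), with a median of 0.05 log2 that went to 0.03 with the length and GC trend removed. The 3 with an unadjusted p under 0.05 were all higher (3.65% over all rows). Cabp1, a neuronal calcium-binding protein, ranged from 60.02 through 65.8 to 79.8 FPKM in VEH-T10 and from 43.2 through 55.7 to 62.4 FPKM in VEH-T3 (0.28 log2, adjusted p = 0.472). Plch2, a phospholipase C, averaged 29.4 and 24.1 FPKM (0.27 log2, adjusted p = 0.61), and Tesc, a calcineurin B homologous protein, 52.4 and 46.0 FPKM (0.18 log2, adjusted p = 0.61). Cabp7, Smoc2, Hpca and Camk1d, which the study names with them, differed by 0.14, 0.13, 0.08 and 0.03 log2, and the mitochondrial sirtuin Sirt4 by 0.17 (adjusted p from 0.616 for Sirt4 to 0.922 for Camk1d). The study named many of its genes from these samples, which makes the list no independent evidence. Its 24 symbols gave 28 tested rows, since some symbols have several rows. Of these rows, 19 were nominally higher and 9 lower (median 0.06 log2) and 0 were called.

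Among 22 glutamate receptor genes, 0 were called and 3 had an unadjusted p under 0.05. The NMDA receptor subunits did not move one way. Grin2a ranged from 9.32 through 9.87 to 10.9 FPKM in VEH-T10 and from 9.10 through 15.0 to 18.0 FPKM in VEH-T3 (-0.47 log2, SE 0.179, adjusted p = 0.538). Grin2b ranged from 6.26 through 7.79 to 14.6 FPKM and from 8.75 through 11.5 to 15.6 FPKM (-0.42 log2, SE 0.197, adjusted p = 0.61), with 1 VEH-T10 mouse far above the other 5. Grin2c ranged from 12.1 through 14.9 to 15.9 FPKM and from 11.3 through 12.3 to 14.1 FPKM (0.20 log2, SE 0.068, adjusted p = 0.448). The transcripts of Grin2a and Grin2b are long, at 14634 and 24060 bases, against 4895 for Grin2c.

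E3 ubiquitin ligases and mRNA decay factors lay mostly lower in VEH-T10. Both lists were drawn up around the called genes Rlim and Rc3h1, with earlier results known, so their direction is not independent of those calls. Of 30 E3 ligases, 2 were called (Rlim and Rc3h1), 8 had an unadjusted p under 0.05, all lower, 27 were nominally lower and 3 higher, and the median was -0.10 log2. Over all rows 0.0455% were called lower, 4.51% were lower at an unadjusted p under 0.05, 51.0% were nominally higher and the median was 0.00 log2. Nedd4l and Xiap, among the 8, differed by -0.19 and -0.13 log2 (adjusted p = 0.44 and 0.538). Of 32 genes for deadenylation and decay, 0 were called, 8 had an unadjusted p under 0.05, all lower, and the median was -0.08 log2. Ddx6, a helicase of decapping and translational repression, was 28.2 through 29.2 to 30.2 FPKM in VEH-T10 and 30.9 through 33.4 to 35.9 FPKM in VEH-T3, without overlap (-0.19 log2, limma adjusted p = 0.0839). It was called in 2 of 21 refits, among them the one without VEH-T3 mouse 5 (-0.21 log2, adjusted p = 0.0265). Cnot1, the scaffold of the CCR4-NOT deadenylase, averaged 12.7 and 14.5 FPKM (-0.18 log2, adjusted p = 0.387), and Tnrc6b, a partner of Argonaute, 4.88 and 5.83 FPKM (-0.21 log2, adjusted p = 0.538).

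Splicing factors of the SR and hnRNP families also lay mostly lower, with 24 of 31, a median of -0.05 log2, 0 calls, and 9 lower and 1 higher at an unadjusted p under 0.05. Over all rows 4.51% were lower and 3.65% higher at that p, and 51.0% were nominally higher. Their median transcript length was 2847 bases, against 3162 over all rows. With the length and GC trend removed, 23 of the 31 were lower and the median was -0.04 log2. Hnrnpd ranged from 17.6 through 19.8 to 20.1 FPKM in VEH-T10 and from 20.2 through 21.7 to 25.2 FPKM in VEH-T3, without overlap (-0.17 log2, adjusted p = 0.258). Hnrnpu averaged 98.1 and 106.9 FPKM (-0.12 log2, adjusted p = 0.449) and Hnrnpa2b1 119.9 and 129.1 FPKM (-0.11 log2, adjusted p = 0.458).

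Genes for short, abundant mRNAs were spread about 0 or slightly above it. Of 80 cytosolic ribosomal protein genes, 56 were nominally higher in VEH-T10, the median was 0.04 log2 and 0 were called. Rps19 alone had an unadjusted p under 0.05 (293.8 ± 34.1 and 239.0 ± 31.1 FPKM, SD, n = 6; 0.30 log2, adjusted p = 0.463). Of 78 oxidative phosphorylation genes, 39 were on each side and the median was 0.00 log2. Uqcrb of complex III and Ndufa6 and Ndufs5 of complex I had the lowest p values, all lower in VEH-T10 (-0.25, -0.19 and -0.37 log2, adjusted p = 0.413, 0.438 and 0.538), and 2 others were higher at an unadjusted p under 0.05; 0 were called.

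All 14 heat shock and chaperone genes were nominally higher in VEH-T10 (51.0% over all rows), by 0.01 to 0.19 log2 (median 0.06). With the length and GC trend removed, 13 were higher and 1 lower, with a median of 0.03 log2. Of the 14, 0 were called and only Hspa1b had an unadjusted p under 0.05 (10.7 ± 1.33 and 9.27 ± 0.966 FPKM, SD, n = 6; 0.19 log2, adjusted p = 0.601). Of 15 glucocorticoid receptors and targets, 8 were higher and 7 lower, 0 were called, and Klf9 alone had an unadjusted p under 0.05 (-0.15 log2, adjusted p = 0.568).

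**Figure D4:**
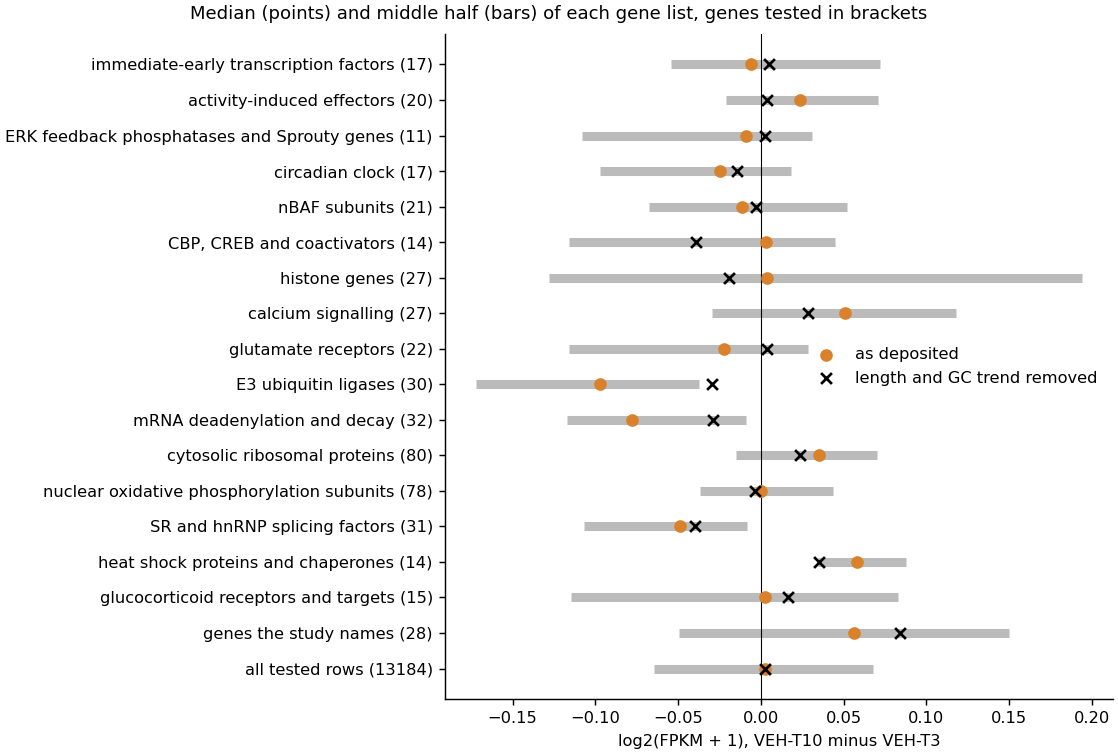
Median difference in log2(FPKM + 1), VEH-T10 minus VEH-T3, of each gene list (orange points, with grey bars from the lower to the upper quartile of its members and the number tested in brackets), and the median after the trend with transcript length and GC content was removed (crosses). E3 ligases and decay factors lie furthest left, at -0.10 and -0.08, and move to -0.03 once the trend is removed.

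The difference between the groups went with transcript length. With the rows in 5 equal bins of length, from the shortest to the longest, the median log2 difference was 0.03, 0.04, 0.02, -0.01 and -0.06, and the share of rows higher in VEH-T10 went from 63.0% in the shortest bin to 23.9% in the longest. With GC content it ran the other way, from -0.03 in the lowest bin to 0.04 in the highest. Across the 13094 rows with an annotated length, which are not independent, Spearman's rho of the difference with length was -0.312 and with GC content 0.251. For Y397F-T10 against Y397D-T3, rho was 0.102 with length and -0.269 with GC content.

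**Figure D5:**
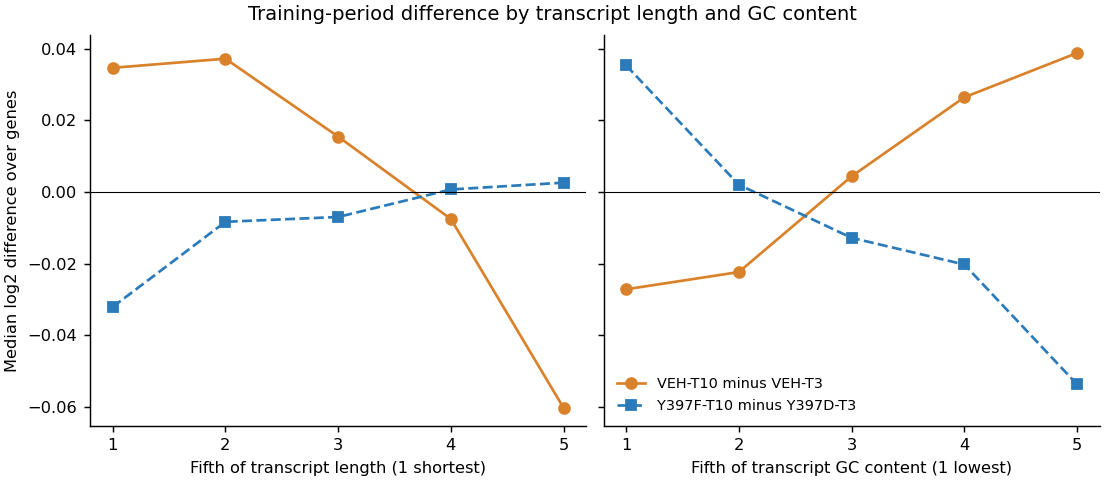
Median log2 difference over rows in 5 equal bins of transcript length (left; 1 is the shortest) and of GC content (right; 1 is the lowest), for VEH-T10 minus VEH-T3 (orange circles) and Y397F-T10 minus Y397D-T3 (blue squares). The vehicle contrast falls from 0.03 to -0.06 with length and the plasmid contrast does not fall with it.

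The called genes belong to the long end: Nucks1 has 5998, Rlim 7439, Tbl1xr1 8237, Lrrc58 8604 and Rc3h1 11006 bases, all in the longest bin, which starts at 5183 bases. The E3 ligases have a median of 7038 bases, the decay factors 5084.5 and all rows 3162. With the trend removed per library, the 5 genes were still lower in VEH-T10, by -0.14 log2 for Nucks1 to -0.19 for Rc3h1, and none was called (adjusted p from 0.162 for Rc3h1 to 0.709 for Tbl1xr1). The E3 ligases then had 23 of 30 members lower with a median of -0.03 log2, and the decay factors 21 of 32 with -0.03.

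Single libraries varied in this property within each group. The rank correlation of a library's deviations with transcript length ranged from -0.427 through -0.130 to 0.176 in VEH-T10 and from -0.304 through 0.152 to 0.423 in VEH-T3. Neither that difference of means (-0.221, 2-sided exact permutation p = 0.147) nor that for GC content (0.173, exact permutation p = 0.0866) nor that of the library medians (-0.01 log2, exact permutation p = 0.706) passed; after Benjamini-Hochberg adjustment over the 3 measures the exact permutation p values were 0.221, 0.221 and 0.706. The smallest p that 6 against 6 can give is 0.00216. Without VEH-T3 mouse 5 the differences were -0.308 for length (unadjusted exact permutation p = 0.0476) and 0.229 for GC content (unadjusted exact permutation p = 0.0217). VEH-T3 mouse 5, at -0.304, was the lowest of VEH-T3, and VEH-T10 mouse 3, at -0.427, the lowest of VEH-T10. The part of length, GC content or library preparation in the 6 calls was not tested beyond these values, and the sequencing instrument of each library is not given in the sources used here.

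Other cell types varied between the mice at the same time. All 12 microglial markers were nominally higher in VEH-T10 (median 0.34 log2), with 0 called and 0 at an unadjusted p under 0.05; their summed FPKM was 346.1 through 957.8 to 1589.5 in VEH-T10 and 291.9 through 707.9 to 1254.9 in VEH-T3. C1qb, a complement subunit made by microglia, ranged from 50.2 to 253.9 FPKM and from 39.6 to 213.4 FPKM (0.45 log2, SE 0.348, adjusted p = 0.773). Of 9 astrocyte markers 7 were higher, among them Gfap (721.9 ± 344.6 and 497.1 ± 278.0 FPKM, SD, n = 6; 0.55 log2, SE 0.451, adjusted p = 0.787). Of 13 oligodendrocyte lineage markers 12 were lower (summed FPKM 1477.8 through 2680.4 to 3329.3 and 1542.3 through 2940.7 to 4538.4), and Mbp, a myelin protein, differed by -0.25 log2 (SE 0.226, adjusted p = 0.81).

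All 11 choroid plexus markers were lower in VEH-T10 in the mean (median -0.92 log2), with 0 called and 0 at an unadjusted p under 0.05. Ttr, the transthyretin gene, ranged from 5.89 through 93.0 to 4330.2 FPKM in VEH-T10 and from 23.9 through 1890.4 to 12451.2 FPKM in VEH-T3 (SE 1.78 log2, adjusted p = 0.792). The 5 ependymal and 7 thalamic markers were also all lower, the 8 meningeal ones in 7 cases and the 6 dentate ones in 5, with 0 called in each list. Of CA1 markers Fibcd1 was nominally higher (40.0 ± 3.63 and 34.1 ± 2.69 FPKM, SD, n = 6; 0.22 log2, adjusted p = 0.606) and Wfs1 lower (43.9 ± 11.3 and 57.6 ± 5.51 FPKM; -0.42 log2, adjusted p = 0.613). Markers of interneurons (9 of 13 higher), endothelium (5 of 8), CA2 and CA3 neurons (5 of 7), striatum (3 of 6), deep cortical layers (1 of 6) and mural cells (2 of 6) had 0 calls as well. The 8 red blood cell rows were all lower, and 1 had an unadjusted p under 0.05, Hbb-bs (0.00171 to 17.4 FPKM and 0.00254 to 30.1 FPKM, adjusted p = 0.538), whose reads are shared with near-identical globin copies. The part of these cell types in the differences above was not tested.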

How the data were processed

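Gene expression values were FPKM, deposited by the authors and used as given: paired-end reads were aligned to mm10 with TopHat 2.1.1 and quantified with Cufflinks 2.2.1. FPKM is divided by transcript length and mapped fragments, so read totals are unknown. All 30 value columns were used, 0 left out, with groups from the sample labels. Rows with a mean of at least 1 FPKM entered limma 3.58.1 (R 4.3.3) as log2(FPKM + 1), 1 coefficient per group, with trended empirical Bayes variances, Benjamini-Hochberg adjustment and a threshold of 0.05. Adding 1 understates fold changes of low genes. The fit was also run on simulated data, drawn without trends in length or GC content, so that run does not bear on such trends. Library measures took exact permutation tests (scipy 1.17.1). Lengths, GC content and coordinates are from GENCODE M21 (GRCm38) by symbol. 280 symbols share 817 rows, which were tested singly.

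Named genes are those called, the 6 largest differences in each direction (5 were found for higher genes) with an unadjusted p under 0.01 and no overlap, up to 3 members per list, and genes the study names; Fosb, Npas4, Nedd4l, Xiap and Tmem263 were added after their values were seen. 1 gene called between the periods and 1 called for the vehicle against the plasmid difference are not reported here. Lists, members and tests were chosen with earlier results of these data known. In the main fit, limma p-values set group differences against the spread between mice, taken over the 30 libraries and moderated across rows. The permutation p-values set differences of means against all reassignments of the 12 libraries. Alternatives covered pseudocount, filter, scaling, libraries fitted, replicate block, summed symbols, length and GC, library weights, robust variances and each library left out.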

Additional observations from a re-analysis of the deposited data

Results flagged for a closer look

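In 13 of 132 sets of 6 values examined, 1 mouse stood further from its group than Dixon's limit allows. Chance flags about 1 in 20 such sets, and the sets share the same 12 mice. In VEH-T10 the highest mouse stood apart for Fos (9.16 FPKM, next 7.45), Homer3 (37.3, next 28.5), Cabp1 (79.8, next 66.5), Grin2b (14.6, next 8.47) and Hbb-bs (17.4, next 4.31). The lowest VEH-T10 mouse stood apart for Klhl15 (1.07 FPKM, next 1.39), Tmem263 (6.57, next 7.57), Grin2c (12.1, next 14.6), Uqcrb (142.2, next 156.3) and Hnrnpd (17.6, next 19.3). In VEH-T3 the highest mouse stood apart for Fibcd1 (39.5 FPKM, next 33.5), Wfs1 (68.2, next 57.6) and Ttr (12451.2, next 2695.8).

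The training-period difference of vehicle mice differed from that of plasmid mice by limma's test of the difference itself for Lrrc58 (-0.37 log2), Rlim (-0.38) and Tmem263 (-0.32), each with an adjusted p of 0.0228. Among plasmid mice the period and the mutant cannot be told apart.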

How the results depend on the processing

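The 6 calls between VEH-T10 and VEH-T3 fell to 0 when libraries were centred on their median, when the 12 libraries were fitted alone, under the replicate block and with the length and GC trend removed, and rose to 53 with array quality weights and to 1075 at an unadjusted p. The 4 calls for the vehicle against the plasmid difference likewise fell to 0 when centred, with the 24 trained libraries alone, under the block and with the trend removed, and were 55 with weights and 1197 unadjusted. The cause was not tested. A pseudocount of 0.1, summed symbols and robust variances kept 6 and 4; without the filter on low values the counts were also 6 (1 higher, 5 lower, 5 of them called before) and 4. Leaving out 1 mouse gave 0 to 21 calls and 0 to 5. Replicate numbers are shared by the labels, which do not say what the numbers mark. Deviations of same-numbered mice correlated at -0.139 to 0.521, and 3 of 6 correlated best with their own number. The main fit did not take the numbers to pair the mice, and whether they mark a shared step was not tested.

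Of the 1323 refits of 63 named genes, 1244 stayed on their side of the threshold with their sign, 56 lost the call (all among the 5 called genes, in 56 of their 105 refits), 14 gained it and 9, in 4 genes, turned sign. Those were Homer1 (0.0188 with the trend removed and -0.0794 to 0.0121 leaving out 1 mouse), Per2 (-0.0609 with weights and -0.0449 to 0.0678), Dusp6 (-0.0322 with weights and -0.0585 to 0.0756) and Camk1d (-0.0151 to 0.0641). The 5 called genes stayed negative in every refit. Of 150 refits of their differences from VEH-HC, 21 lost a call, but many of the 150 had none to lose. The differences called in the main fit were those of Rlim and Nucks1 in VEH-T10 and of Lrrc58, Rc3h1 and Tbl1xr1 in VEH-T3. The 21 losses fell among these, in each gene except Lrrc58. The length and GC trend was not removed in any of the 150 refits. The difference of library medians was -0.0311 to 0.00204 log2 leaving out 1 mouse, above 0 without VEH-T3 mouse 5. Read totals are unknown in FPKM, so the counting error of rows of low expression is not known.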
